A study of Apostichopus japonicus with 12 samples.

Results

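A set of 104 transcribed features, of 59494 listed, was lower in respiratory trees of Apostichopus japonicus, a sea cucumber, when the animals were kept in warm water, with or without low oxygen. The members were chosen by their measured values. Each of the 6 libraries from warmed animals lay below each of the 6 others, both warmed groups averaged at least 1 log2 unit under the control group, low oxygen alone averaged within 1 log2 unit of the control group, and the highest group mean was at least 2 FPKM. FPKM counts fragments relative to the length of the feature and to the fragments of the whole library, and log2 values throughout are log2(FPKM + 0.5), which understates changes of features with low values. The study set 4 treatments side by side with 3 libraries each: a thermal group at 26 °C, a combined group at 26 °C and 2 mg/L dissolved oxygen, a hypoxic group at 2 mg/L, and a normal control group. The sources used here do not state temperature and oxygen of the control group, oxygen of the thermal group, temperature of the hypoxic group or the length of exposure. The labels do not say whether replicates were separate animals, so every p-value measures the spread between these libraries, which may be technical.

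The respiratory tree is a pair of branched, thin-walled sacs that open into the cloaca, through which sea cucumbers pump sea water in and out to take up oxygen. Warm water holds less dissolved oxygen than cool water and raises the oxygen demand of animals that take their body temperature from it. Apostichopus japonicus is a cool-water species that aestivates in summer, when it stops feeding and its metabolic rate falls. These points are background and were not measured here. The identifiers in the table begin with AJAP or MSTRG and were paired with gene names neither in the table nor in the RefSeq gene table used here, where 0 of them matched. Members are therefore described by level and pattern, with no function assigned, and the labelled tissue could not be checked against its marker genes.

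Whole reads could be recovered from the deposited values, with library totals between 20387909 and 28428042 reads. These are the totals that scale FPKM, and listed features held 99.98% to 99.99% of them. Reads outside the listed features may thus be missing from them, and the full sequencing depth was not recovered. The members together held between 25304 and 51567 reads in each warmed library and between 70688 and 108891 in each of the others. A member's median count per library ran from 42 to 110 reads in the warmed libraries and from 182 to 300 in the others. In 26 members at least 1 warmed library held fewer than 10 reads, so their warmed levels carry a large counting error. Total RNA of a whole tissue was measured, and fewer cells of a type cannot be told apart from less RNA per cell.

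Summed over the 104 members, abundance was 2602 ± 489 FPKM in the thermal group and 2147 ± 375 FPKM in the combined group, against 4483 ± 193 FPKM in the hypoxic group and 5953 ± 574 FPKM in the control group (SD, n = 3 each). The selection makes any sum over members lower in the warmed libraries, so only the sizes of these sums are described. Without AJAP09677, the most abundant member, the sums were 1138 ± 128 FPKM in the thermal group and 833 ± 140 FPKM in the combined group, against 2250 ± 151 FPKM in the hypoxic group and 2978 ± 461 FPKM in the control group. The thermal group kept a median of 36.7% of a member's mean level in the 6 hypoxic and control libraries, with a range of 1.95% to 56.6%. The combined group kept a median of 24.0%, with a range of 0% to 53.6%, and stood under 25% for 56 members, against 16 members in the thermal group. The median log2 difference from the control group was -1.43 for the thermal group, -1.80 for the combined group and -0.41 for the hypoxic group. Across the 46763 features tested, which reached 0.5 FPKM in 3 or more libraries, the same medians were 0.06, -0.02 and -0.08. Because these differences chose the members, they are a description and not a test. In limma's model of all features, 45 of the 104 members were lower under heat averaged over oxygen level at an adjusted p of 0.05, against 0.205% of all features tested. When the recovered reads were tested with voom, 43 were, against 0.218%. The count of 45 was between 3 and 38 when any 1 of the 12 libraries was left out, and was 38 and 26 without combined replicate 3 and thermal replicate 3. The selection used the same contrast, so nothing is read from these counts.

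**Figure D1:**
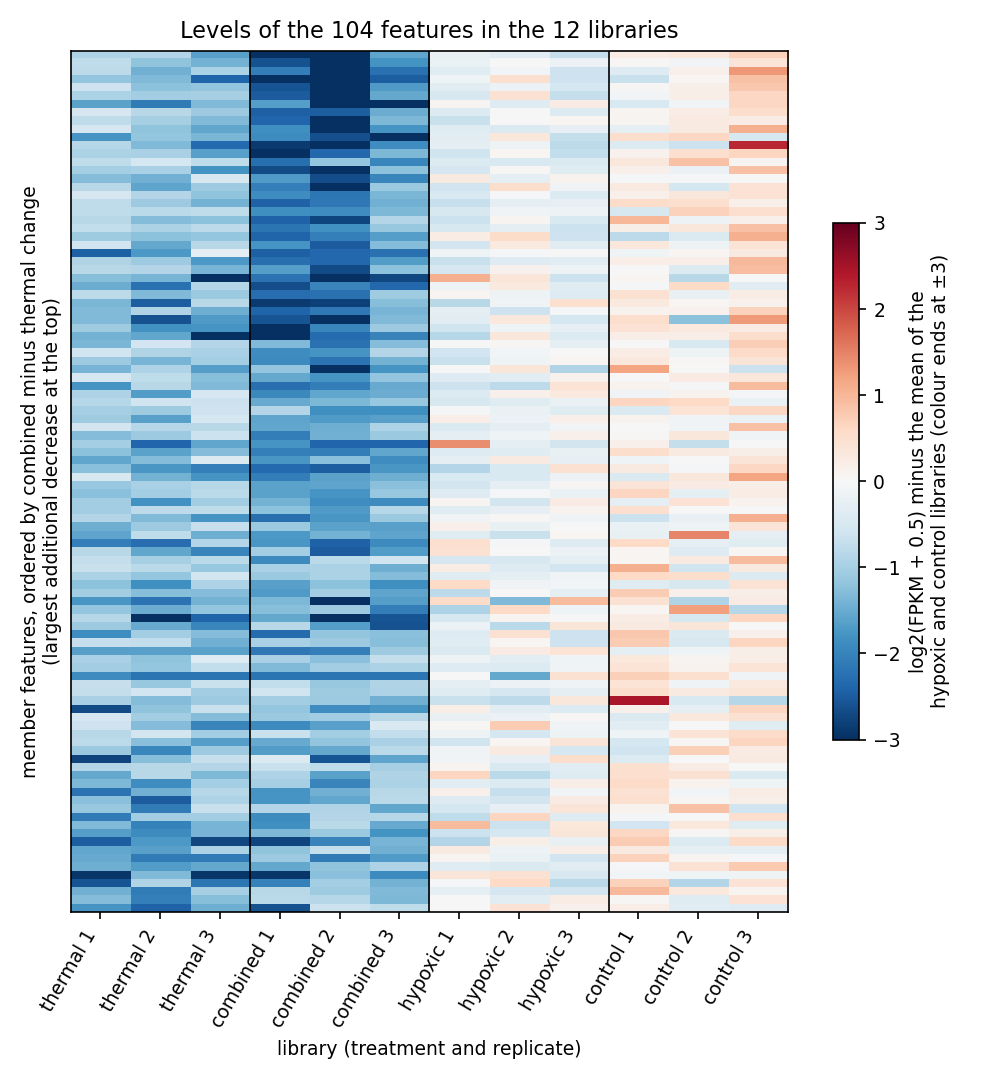
Levels of the 104 members (rows) in the 12 libraries (columns), as log2(FPKM + 0.5) minus the mean of the hypoxic and control libraries; blue is lower and red is higher. Rows run from the member with the most negative combined minus thermal difference (-1.68) at the top to the most positive (0.55) at the bottom, and the darkest blue lies in the upper part of the combined columns.

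Mean abundance in the hypoxic and control libraries ran from 1.62 to 2604 FPKM among members, with a median of 8.36 FPKM. It was at least 50 FPKM for 11 members, between 10 and 50 FPKM for 34 and under 10 FPKM for 59. AJAP09677 had 1304, 1109 and 1979 FPKM in the thermal libraries and 1300.3, 1082 and 1561 FPKM in the combined libraries, against 2311, 2029 and 2359 FPKM in the hypoxic libraries and 3226, 2733 and 2967 FPKM in the control libraries. Its hypoxic libraries all lay between the warmed ones and the controls, and the thermal and combined ranges overlapped. AJAP22429 had the same order of groups. It stood at 229, 252 and 182 FPKM in the thermal libraries and 249.6, 180.1 and 198 FPKM in the combined libraries, against 293, 264 and 308 FPKM in the hypoxic libraries and 543, 449.8 and 484 FPKM in the control libraries. Its control libraries lay well above all others, and its hypoxic minus control difference was -0.77, not far from the bound of 1 that the selection set.

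AJAP12470 and AJAP12499 had lower means in the combined than in the thermal group, with overlapping libraries and differences that did not pass limma's test (adjusted p = 0.51 and 0.50). AJAP12470 had 226, 119 and 191 FPKM in the thermal libraries and 100.5, 60.1 and 139 FPKM in the combined libraries, against 231, 421 and 269.7 FPKM in the hypoxic libraries and 435, 309 and 459 FPKM in the control libraries. Its highest thermal library lay just 0.03 log2 units under its lowest hypoxic library. AJAP12499 had 91.6, 64.2 and 111 FPKM in the thermal libraries and 89.3, 13.1 and 32.0 FPKM in the combined libraries, against 296, 215 and 335 FPKM in the hypoxic libraries and 204, 265 and 433 FPKM in the control libraries. Its hypoxic and control levels were nearly equal, with a difference of -0.04 log2 units, and heat averaged over oxygen level differed by -2.37. The combined libraries of AJAP12499 were uneven, with replicate 1 at the level of the thermal libraries.

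In AJAP15694, AJAP30284 and AJAP19910 the means of the warmed groups were closer to each other. AJAP15694 averaged 65.1 ± 9.99 FPKM in the thermal group and 47.0 ± 11.2 FPKM in the combined group, against 115 ± 13.8 FPKM in the hypoxic group and 158 ± 49.1 FPKM in the control group (SD, n = 3 each). AJAP30284 averaged 48.3 ± 14.7 FPKM in the thermal group and 47.6 ± 8.88 FPKM in the combined group, against 111 ± 36.0 FPKM in the hypoxic group and 121 ± 48.7 FPKM in the control group. AJAP19910 averaged 39.3 ± 11.6 FPKM in the thermal group and 37.3 ± 4.08 FPKM in the combined group, against 69.1 ± 6.79 FPKM in the hypoxic group and 83.3 ± 25.3 FPKM in the control group. In AJAP30284 and AJAP19910 the thermal and combined means differed by less than either SD, whereas the combined mean of AJAP15694 was lower by more than either. AJAP28331 had its higher warmed mean in the combined group, with 20.3, 17.5 and 19.5 FPKM in the thermal libraries and 19.4, 24.4 and 29.7 FPKM in the combined libraries, against 44.1, 42.0 and 45.5 FPKM in the hypoxic libraries and 54.8, 77.0 and 98.5 FPKM in the control libraries. All 3 of its hypoxic libraries lay under its lowest control library.

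The 2 MSTRG members above 50 FPKM were as high under low oxygen alone as in the control group. MSTRG.99835 had 32.6, 21.7 and 47.3 FPKM in the thermal libraries and 22.5, 20.6 and 22.0 FPKM in the combined libraries, against 79.3, 60.5 and 76.5 FPKM in the hypoxic libraries and 74.3, 64.0 and 59.5 FPKM in the control libraries. MSTRG.60512 averaged 27.4 ± 10.6 FPKM in the thermal group and 16.7 ± 2.69 FPKM in the combined group, against 55.2 ± 13.7 FPKM in the hypoxic group and 53.1 ± 3.94 FPKM in the control group (SD, n = 3 each). In both, the combined libraries were closer together than the thermal ones.

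**Figure D2:**
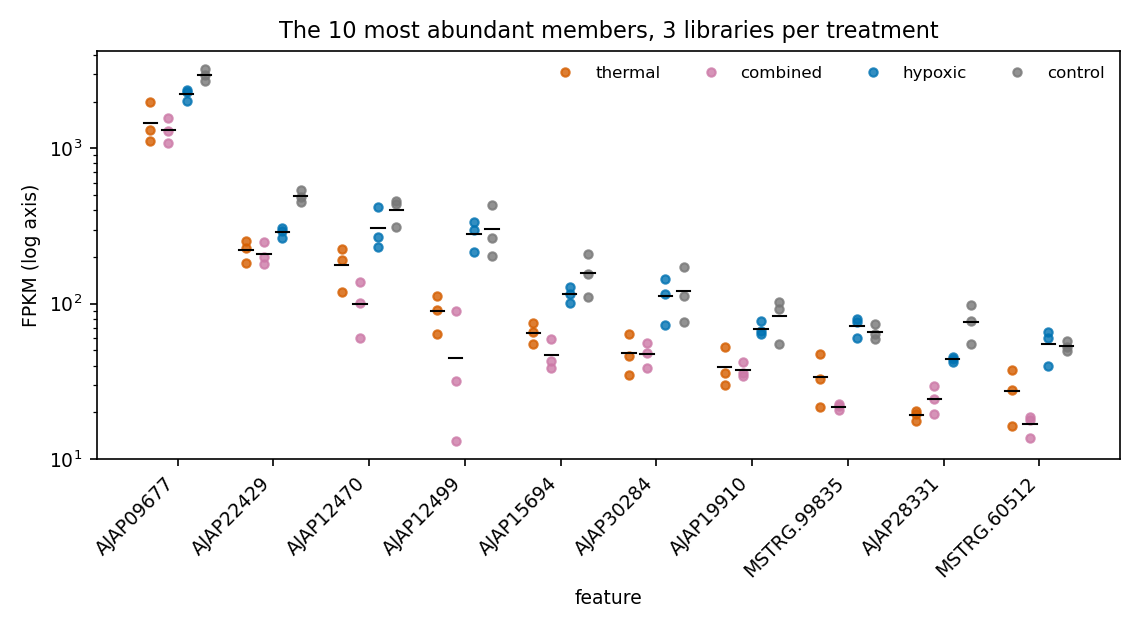
FPKM (log axis) of the 10 most abundant members in each library, with 3 points per treatment and a bar at their mean. The thermal and combined points of every feature shown lie below its hypoxic and control points, as the selection requires, and the combined points of AJAP12499 spread from 13.1 to 89.3 FPKM.

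Among members averaging at least 5 FPKM in the unwarmed libraries, AJAP21839 had the largest difference, with a log2 change of -2.40 for heat averaged over oxygen level. It was at 6.30, 5.75 and 2.46 FPKM in the thermal libraries and 1.18, 0.637 and 2.28 FPKM in the combined libraries, against 13.6, 21.2 and 9.69 FPKM in the hypoxic libraries and 9.30, 15.7 and 28.0 FPKM in the control libraries. Every combined library of AJAP21839 lay below every thermal one, and its hypoxic and control libraries overlapped. AJAP04419 differed by -2.36 and was one of the 17 members whose hypoxic mean exceeded the control mean. It had 2.10, 1.91 and 0.1899 FPKM in the thermal libraries and 0.858, 0.126 and 0.447 FPKM in the combined libraries, against 12.7, 7.61 and 3.54 FPKM in the hypoxic libraries and 6.11, 3.07 and 5.86 FPKM in the control libraries. Its hypoxic difference from control, 0.51, was the highest of any member.

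MSTRG.27335, with a log2 change of -2.33, averaged 2.87 ± 1.60 FPKM in the thermal group and 1.61 ± 1.08 FPKM in the combined group, against 9.80 ± 4.46 FPKM in the hypoxic group and 14.5 ± 2.13 FPKM in the control group (SD, n = 3 each). AJAP18902, with -2.29, had 17.9, 2.79 and 5.82 FPKM in the thermal libraries and 10.9, 3.62 and 5.05 FPKM in the combined libraries, against 23.4, 34.5 and 32.5 FPKM in the hypoxic libraries and 38.4, 23.3 and 51.7 FPKM in the control libraries. In both warmed groups of AJAP18902 replicate 1 was the highest, and the group means hid a several-fold spread. AJAP24622 (-2.26) was at 0 in combined replicate 2, with 0.826 and 2.65 FPKM in the other two, and its lowest unwarmed library, control replicate 2, stood at 2.88 FPKM. The log2 changes of MSTRG.21540, AJAP21045, AJAP25322 and AJAP10984 lay between -2.18 and -1.99. The control mean of AJAP21045, 76.4 ± 88.2 FPKM, rested mostly on control replicate 3 at 178 FPKM, against 27.5 and 23.5 FPKM in the other two.

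The 5 members with the least spread within groups included AJAP22429 and the features that follow. AJAP14688 had 15.0, 13.7 and 18.7 FPKM in the thermal libraries and 12.3, 15.0 and 16.1 FPKM in the combined libraries, against 23.9, 23.6 and 29.0 FPKM in the hypoxic libraries and 41.6, 33.5 and 41.5 FPKM in the control libraries. Its hypoxic libraries formed a separate middle level. AJAP13270 did the same with a further step between the warmed groups, at 18.6, 21.1 and 23.0 FPKM in the thermal libraries and 13.4, 13.7 and 17.2 FPKM in the combined libraries, against 28.6, 33.9 and 42.9 FPKM in the hypoxic libraries and 54.9, 49.6 and 46.9 FPKM in the control libraries. All 4 groups of AJAP13270 were separate. AJAP11515 averaged 3.39 ± 0.0704 FPKM in the thermal group and 3.54 ± 0.458 FPKM in the combined group, against 5.56 ± 1.23 FPKM in the hypoxic group and 7.95 ± 1.36 FPKM in the control group (SD, n = 3 each). AJAP22188 averaged 1.18 ± 0.223 FPKM in the thermal group and 0.681 ± 0.252 FPKM in the combined group, against 2.97 ± 0.233 FPKM in the hypoxic group and 4.95 ± 0.685 FPKM in the control group. Their pooled within-group SD lay between 0.19 and 0.20 log2 units, while its median was 0.49 over all members and 0.62 over all features tested. The median was 0.57 over features tested with a group mean of at least 2 FPKM. Separation of the libraries, which the rule demands, favours a small spread, so nothing is read from the lower value of members.

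The combined group was then set against the thermal group, which asks whether low oxygen changed features further in warm water. The selection did not compare these groups directly, but it bounded both against the control with the same values, so the counts over members are not free of it and are a description. The test is that of the whole table. No feature of the whole table passed limma's test of the combined against the thermal group at an adjusted p of 0.05 (0% of 46763, smallest adjusted p = 0.084), and the lowest adjusted p of a member was 0.25, for AJAP30210. At an unadjusted p of 0.05, 23 of the 104 members were lower in the combined group, against 5.32% of all features, and 0 were higher, against 3.42%. With voom on the recovered reads 0 features passed. At an unadjusted p of 0.05 by voom, 22 members were lower and 0 higher, against 2350 and 1626 of the 46763 features tested. The count of 23 fell to 11 when the thermal and combined libraries were fitted alone, where 2261 of 46763 features were lower. It was 14, 15 and 12 without thermal replicate 1, combined replicate 1 and combined replicate 2, where 2106, 2267 and 2134 features were lower. When any other library was left out it was between 18 and 31, against between 1909 and 2944 of all features. It was highest without combined replicate 3. Without thermal replicate 2, 85 features of the whole table passed limma's test, of which 0 were members. All 3 combined libraries lay below all 3 thermal libraries for 20 members, against 7.96% of all features, and above them for 0 members, against 5.07%. The median difference was -0.49 log2 units over members (quartiles -0.84 and -0.07) and -0.08 over all features tested (quartiles -0.47 and 0.31). The combined mean was the lower one for 83 members (79.8%) and the higher one for 21, where it was the lower one for 55.6% of all features tested. A difference of at least 1 log2 unit was seen downward in 16 members and upward in 0, against 8.63% downward and 5.18% upward over all features tested. The members are not independent of each other, and no single one of them passed the adjustment.

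Among members averaging at least 2 FPKM in a warmed group, those with the most negative differences ranged widely under low oxygen alone. AJAP10984 had 10.6, 11.1 and 6.34 FPKM in the thermal libraries and 0.998, 2.03 and 6.64 FPKM in the combined libraries, against 17.7, 16.3 and 12.6 FPKM in the hypoxic libraries and 24.8, 26.0 and 33.9 FPKM in the control libraries. Its combined minus thermal difference was -1.68 (SE 0.47, limma adjusted p = 0.32), combined replicate 3 overlapped the thermal libraries, and the hypoxic mean was below the control mean by a difference of -0.84. AJAP14170 had 10.5, 7.64 and 6.56 FPKM in the thermal libraries and 2.58, 0.914 and 4.91 FPKM in the combined libraries, against 15.9, 18.1 and 16.2 FPKM in the hypoxic libraries and 18.8, 17.3 and 24.2 FPKM in the control libraries. Here the warmed groups did not overlap, the hypoxic minus control difference was -0.25, and the combined minus thermal difference was -1.58 (SE 0.41, limma adjusted p = 0.28).

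AJAP13376 averaged 8.58 ± 1.99 FPKM in the thermal group and 2.84 ± 1.497 FPKM in the combined group (SD, n = 3 each), a difference of -1.54 (SE 0.46, limma adjusted p = 0.35). AJAP21839 differed by -1.52 (SE 0.50, limma adjusted p = 0.40). AJAP15483 had 14.6, 9.37 and 9.69 FPKM in the thermal libraries and 3.37, 2.09 and 6.71 FPKM in the combined libraries, against 18.0, 20.3 and 15.6 FPKM in the hypoxic libraries and 23.5, 26.0 and 40.3 FPKM in the control libraries, and differed by -1.46 (SE 0.37, limma adjusted p = 0.26). AJAP30210, which was singled out after its values were seen, had 8.89, 7.01 and 5.79 FPKM in the thermal libraries and 1.94, 1.89 and 4.22 FPKM in the combined libraries, a difference of -1.34 (SE 0.33). The thermal and combined libraries did not overlap in AJAP13376, AJAP21839, AJAP15483 or AJAP30210.

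In the other direction the differences were smaller, and the 5 largest among members averaging at least 2 FPKM in a warmed group were read. AJAP10446 averaged 13.5 ± 3.89 FPKM in the thermal group and 19.7 ± 3.84 FPKM in the combined group (SD, n = 3 each), a combined minus thermal difference of 0.55 (SE 0.30, limma adjusted p = 0.64). MSTRG.109413 had 2.02, 1.09 and 2.64 FPKM in the thermal libraries and 0.898, 5.003 and 4.60 FPKM in the combined libraries, also a difference of 0.55 (SE 0.50, limma adjusted p = 0.82). AJAP17119, AJAP28331 and AJAP20945 differed by 0.44, 0.33 and 0.23, with limma adjusted p-values of 0.80, 0.76 and 0.91. The thermal and combined libraries overlapped in all 5.

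**Figure D3:**
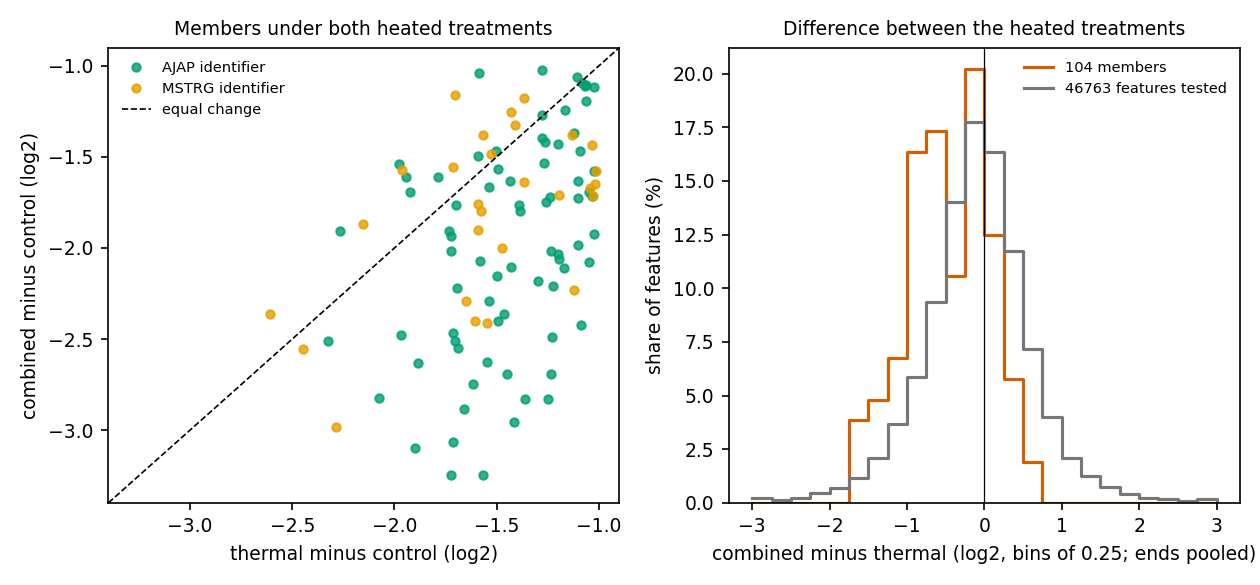
Left, the log2 difference from control in the thermal group (x axis) and the combined group (y axis) for each member, by identifier class; 83 of 104 points lie under the dashed line of equal change. Right, the share of features (%) in bins of 0.25 of the combined minus thermal difference, for the 104 members (median -0.49) and for the 46763 features tested (median -0.08).

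Since the 12 libraries chose the members, the same measure was also read in libraries the choice had not used. The rule was applied to 8 libraries at a time, leaving out the replicate with the same number in each group, and the features it then chose were followed in the 4 libraries left out. It chose 337, 227 and 293 features without replicates 1, 2 and 3, and 78, 73 and 73 of these belonged to the 104. In the libraries left out, the median thermal minus control difference of the chosen features was -0.58, -0.76 and -0.48 log2 units, where the libraries used to choose them gave -1.45, -1.49 and -1.46. The median combined minus control difference was -1.31, -1.16 and -1.14 in the libraries left out, where the others gave -1.75, -1.78 and -1.74. The differences were thus smaller in libraries the rule had not seen, more so for heat alone. Over all features tested, the medians in the libraries left out were 0, 0 and 0.17 for thermal minus control and -0.02, 0 and 0.00325 for combined minus control.

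In the libraries left out, each warmed library was below the control library for most of the chosen features. Only a minority of the chosen features were members, so these shares do not test the set of members. The thermal library was below the control library for 73.0%, 76.7% and 66.2% of the chosen features, and the combined library was below the control library for 81.9%, 81.5% and 82.9%. Over all features tested these shares were 49.0%, 49.2% and 40.6% for the thermal library and 50.8%, 49.2% and 47.0% for the combined library. Both warmed libraries lay below both unwarmed libraries for 40.4%, 51.5% and 46.8% of the chosen features, against 13.6%, 14.3% and 15.7% of all features tested. The median combined minus thermal difference of the chosen features was -0.73, -0.42 and -0.58 in the libraries left out, where the libraries used to choose them gave -0.33, -0.19 and -0.20 and all features tested gave -0.01, 0 and -0.14 in the libraries left out. This difference was larger in the libraries left out, unlike the differences from control. In the libraries used, the rule bounded both warmed groups against the control, so this difference was not free of the rule there. Nothing is read from its larger size in the libraries left out. The chosen features share these libraries, so the shares describe 3 sets of 4 libraries and carry no test. The features tested were not matched to the chosen ones in level or spread, so the gap between their shares is a description.

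**Figure D4:**
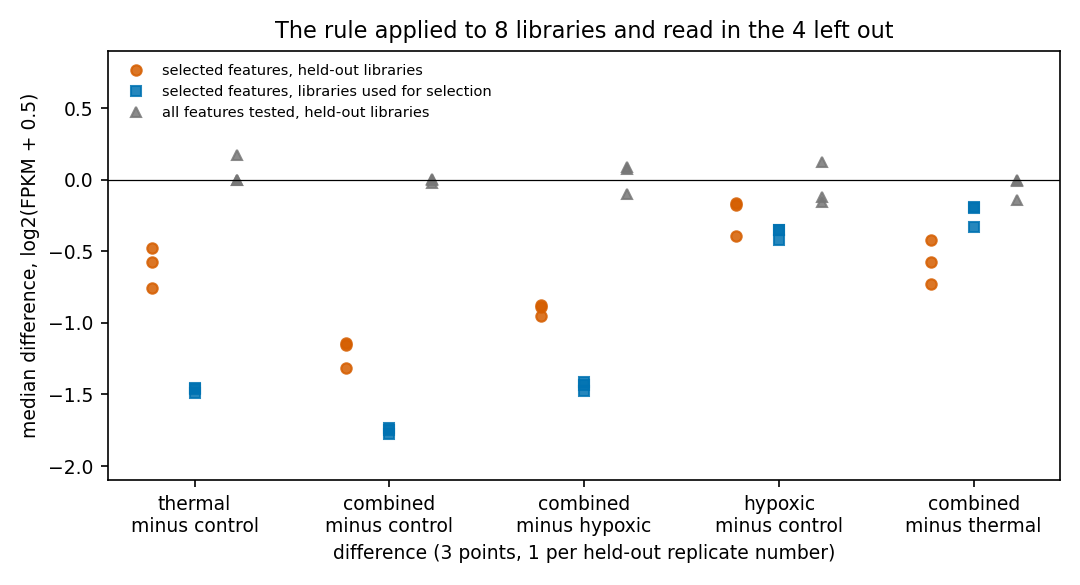
Median log2 difference of 5 pairs of groups, for features chosen by the rule on 8 libraries: in the 4 libraries left out (circles), in the 8 libraries used (squares), and for all features tested in the libraries left out (triangles). The 3 points of each kind stand for leaving out replicate 1, 2 or 3; the thermal minus control circles lie between -0.76 and -0.48, above the squares near -1.5.

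Low oxygen alone was bounded by the selection to a mean within 1 log2 unit of the control, but its sign was free. The hypoxic mean was below the control mean for 87 of the 104 members (83.7%), against 54.7% of all features tested, with a median difference of -0.41 and a range of -0.93 to 0.51. The selection sets both warmed groups against the control group, so this sign is not independent of the rule. In the libraries left out, the median hypoxic minus control difference of the chosen features was -0.40, -0.18 and -0.16, where all features tested gave -0.16, -0.12 and 0.12.

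Identifier class and length, which the rule did not use, were described without a test. Of the members 76 (73.1%) carried AJAP identifiers and 28 carried MSTRG identifiers, where AJAP identifiers made up 48.5% of features tested and 57.5% of those tested with a group mean of at least 2 FPKM, which the rule demands. The median length recovered from the FPKM values was 1119 bases for members (quartiles 719 and 1810.5), against 1019 bases for features tested with a group mean of at least 2 FPKM (quartiles 600.0 and 1746), so the ranges largely overlapped. AJAP members had a median length of 1095 bases and MSTRG members 1399 bases, against 984 and 1093 bases among features of that level. The shortest member was AJAP13270 at 276 bases and the longest was MSTRG.90796 at 7850 bases. The median combined minus thermal difference was -0.53 for AJAP members and -0.26 for MSTRG members, against -0.06 and -0.10 for the AJAP and MSTRG features tested.

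The libraries of a group differed in how many members they held highest or lowest. The same counts were not made over all features tested, so the counts are a description. Combined replicate 3 was the highest of its group for 59 of 104 members, and thermal replicate 1 for 50. Thermal replicate 2 was the lowest of its group for 49 and combined replicate 2 for 45. The median deviation of members from their own group mean was 0.31 log2 units in combined replicate 3 and -0.17 in combined replicate 2, where the median over all features tested was -0.04 and 0.02. Control replicate 3 had a median deviation of 0.15 and was the highest control library for 49 members, with -0.09 over all features tested. Combined replicate 3 had the highest median member level of its group, 2.34 FPKM, and thermal replicate 2 the lowest of its own, 2.66 FPKM. The part of these library differences in the comparison of the warmed groups was not tested beyond leaving each library out.

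A few members sat at the floor of detection under heat. Among the 104 members, 7 were at 0 in at least 1 library. Each of these libraries was a warmed one, as the selection requires. MSTRG.133406, singled out for its zeros, had 1 read over all 3 thermal libraries and 0 reads over all 3 combined libraries, against 32 reads in the 3 hypoxic libraries and 48 in the 3 control libraries. A floor of 3 reads per group was used, which covers counting error alone, and the hypoxic and control reads were taken as exact. On that footing the combined level of MSTRG.133406 was at least 9.91-fold lower than the hypoxic level and at least 15.8-fold lower than the control level. The hypoxic reads were uneven, at 12, 2 and 18 in replicates 1, 2 and 3, so 9.91-fold is not a firm bound.

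The edges of the selection held features of nearly the same behaviour on both sides. The highest warmed library of AJAP15691 stood at 5.391 FPKM and its lowest unwarmed library at 5.396 FPKM, and for AJAP02213 these were 1.956 and 1.959 FPKM. MSTRG.99835 and MSTRG.60512 were members with thermal minus control differences of -1.015 and -1.019, while AJAP28732 (-0.996) and MSTRG.128455 (-0.990) fell outside on that condition alone, as 42 features did. AJAP06942 (-1.02) and AJAP10446 (-1.04) were just inside on the combined minus control difference, and AJAP09485 (-0.95) and AJAP16606 (-0.91) were just outside, among 6 features that failed it alone. The bound on low oxygen kept AJAP14541 (-0.934) and AJAP17119 (-0.919) and left out AJAP07698 (-1.03) and AJAP25854 (-1.06), among 17. The level condition kept AJAP30188 and AJAP22394, with highest group means of 2.01 and 2.05 FPKM, and left out MSTRG.54797 and AJAP19307 at 1.99 and 1.87 FPKM, among 22. Another 491 features met every condition except separation of the libraries, and the 2 nearest to it, AJAP10521 and MSTRG.106458, were at 0 in every warmed library and also at 0 in at least 1 of the others.

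The members MSTRG.21535, MSTRG.21536, MSTRG.21539 and MSTRG.21540 stood close in number, in an unbroken run of 7 listed identifiers. No coordinates were used here, so whether they lie together in the genome was not examined, and reads of overlapping or near-identical features could have been split between them. MSTRG.21540 had 0.428, 1.07 and 0.277 FPKM in the thermal libraries and 0.263, 0.778 and 1.45 FPKM in the combined libraries, against 2.31, 5.27 and 3.94 FPKM in the hypoxic libraries and 8.21, 3.39 and 7.14 FPKM in the control libraries. MSTRG.21536, with a recovered length of 5051 bases, had 1.23, 0.975 and 0.957 FPKM in the thermal libraries and 0.612, 1.28 and 0.692 FPKM in the combined libraries, against 1.57, 3.03 and 2.45 FPKM in the hypoxic libraries and 5.62, 3.47 and 3.56 FPKM in the control libraries. Both features had no overlap between warmed and unwarmed libraries, as the selection requires, and neither showed a step between the thermal and combined groups. MSTRG.21535 averaged 0.459 FPKM in the thermal group and 0.650 FPKM in the combined group, against 2.67 FPKM in the hypoxic group and 3.13 FPKM in the control group. MSTRG.21539 averaged 0.730 FPKM in the thermal group and 0.896 FPKM in the combined group, against 2.502 FPKM in the hypoxic group and 3.00 FPKM in the control group.

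The 3 features of the run that were not members pointed the same way at lower levels. MSTRG.21538 averaged 0.320 FPKM in the thermal group and 0.205 FPKM in the combined group, against 1.08 FPKM in the hypoxic group and 2.84 FPKM in the control group. Its hypoxic difference of -1.20 was past the bound. Its warmed and unwarmed libraries also overlapped, with hypoxic replicate 1 at 0.054 FPKM and thermal replicate 3 at 0.503 FPKM. MSTRG.21534 held 10 reads in the thermal libraries and 0 in the combined libraries, against 19 in the hypoxic libraries and 41 in the control libraries. MSTRG.21537 held 0 reads in both warmed groups, against 11 in the hypoxic libraries and 14 in the control libraries, and its libraries overlapped at 0. The within-group correlations of the 6 pairs of the 4 members over the 12 libraries ran from 0.33 to 0.72, as a description of libraries they share.

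**Figure D5:**
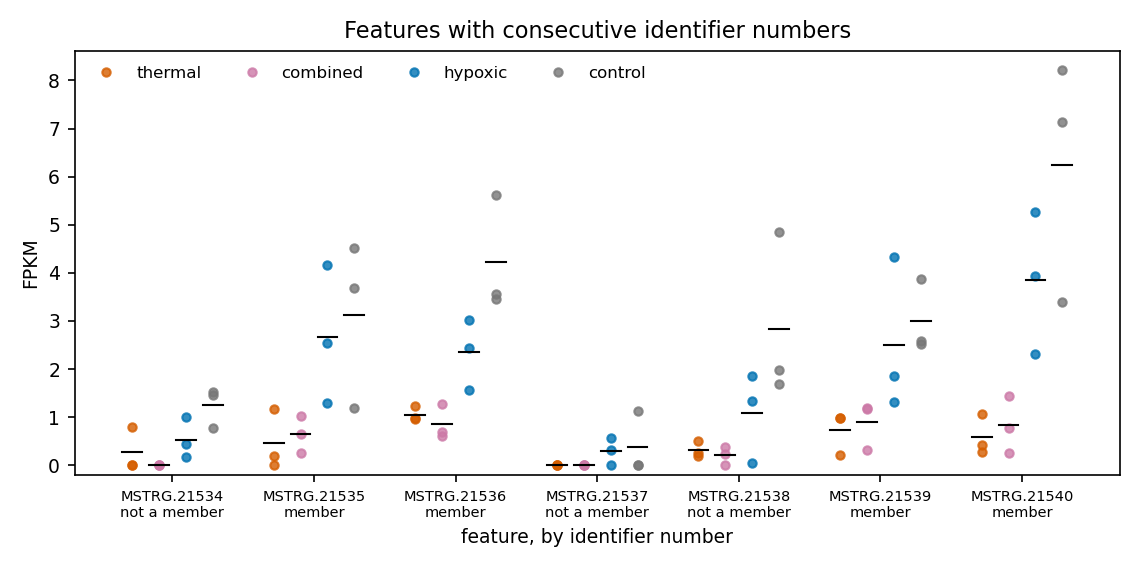
FPKM of the 7 features with consecutive identifier numbers in each library, with 3 points per treatment and a bar at their mean. In the 4 members all thermal and combined points lie below the hypoxic and control points, as the selection requires. MSTRG.21534, MSTRG.21537 and MSTRG.21538 had means under 3 FPKM in every group.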

How the data were processed

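Respiratory tree RNA was depleted of ribosomal RNA with a kit made for human, mouse and rat and sequenced from strand-marked libraries, per the labels' protocols. The authors deposited 1 table of FPKM values with a column per library. Bowtie2 2.2.3, TopHat2 2.0.12, Cufflinks and DESeq 1.16 are listed in the submitters' processing notes, without roles. The sources used here name no genome build or annotation and do not say whether counting used strand, so sense and antisense reads may be mixed.

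Columns were matched to libraries by title and groups came from the treatment labels. Library totals, whole reads and feature lengths were recovered as the numbers that make every FPKM value of a feature a whole number of reads at a shared whole length (tolerance 0.001 reads). This held for 100% of 59494 features. The procedure was tested on simulated data. A feature whose reads share a common factor gets too short a length, which is likely only where few libraries have reads. Intervals from reads would cover counting error alone.

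Features reaching 0.5 FPKM in 3 or more libraries were tested in limma 3.58.1 (R 4.3.3), on log2(FPKM + 0.5) with 4 group means, a variance trend and Benjamini-Hochberg adjustment. The alternatives were pseudocounts of 0.1 and 1, other filters and scalings, a replicate block, voom on reads, a fit on 2 groups, and leaving out each library. The members and the rule for named features (the 10 most abundant members, the 10 with the largest change, up to 5 with the largest difference between warmed groups in each direction among members averaging at least 2 FPKM in a warmed group, the 5 with the least spread, and those nearest each limit) were chosen with earlier results of these data known. The reading of the rule in libraries left out was added after the data were seen. Python 3.11.15, numpy 2.4.6, pandas 2.3.3 and matplotlib 3.10.9 were used.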

Additional observations from a re-analysis of the deposited data

How the results depend on the processing

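Applied to 11 libraries, the rule chose between 112 and 180 features, the most without thermal replicate 1. With a change of at least 0.5 or 1.5 log2 units in place of 1, it chose 201 or 39; 6 other settings gave between 79 and 141. Over the whole table, combined against thermal gave 1 call with a replicate block and between 0 and 85 when a library was left out, the 85 without thermal replicate 2 and 2 without thermal replicate 1. No member was called for that comparison under any setting run. Heat averaged over oxygen level called 174 features, 45 of them members. Without a filter these were 99 and 27, with the replicate block 69 and 19, and with a library left out between 26 and 113 and between 3 and 38. The cause of these shifts was not tested. Same-numbered libraries did not deviate together over all features tested (18 pairs, r between -0.08 and 0.086). Pairs with different numbers gave r between -0.056 and 0.079. A link between same-numbered libraries in part of the features was not tested. The median combined minus thermal difference of members stayed between -0.64 and -0.37, within the replicate spread of 0.19, and no direction reversed. Each named member was read under each alternative setting. Of these pairs of member and setting, heat changes kept their side of the threshold in 499, were past it only under the alternative in 17 and lost it in 202. The 26 members with under 10 reads in a warmed library are limited most by depth.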

Other observations

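Features next to a member in identifier number were read for the change with heat, a look chosen after the data were seen. Of 89 members with a tested neighbour, 11 (12.4%) had one lower by at least 1 log2 unit under heat averaged over oxygen level, against 4.76% of 34406 features tested. The share was 5 of 17 among MSTRG members, where the run of consecutive numbers supplies 4 of the 5, against 3.46% of MSTRG features. Some of these neighbours were themselves members, which the rule chose for being lower under heat. For MSTRG.21536 and MSTRG.21540 the only such neighbour was a member, MSTRG.21535 and MSTRG.21539. Among AJAP members the share was 6 of 72 (8.33%), against 5.56% of AJAP features. Neighbouring numbers were not checked for position in the genome, and no test was made.

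AJAP13526, next to the member AJAP13527, averaged 90.0 FPKM in the thermal group and 23.5 FPKM in the combined group, against 159 FPKM in the hypoxic group and 155 FPKM in the control group. Its thermal minus control difference of -0.87 alone kept it out of the set, while its combined minus control difference was -2.74. AJAP12469, next to AJAP12470, averaged 11.8 FPKM in the thermal group and 2.45 FPKM in the combined group, against 24.7 FPKM in the hypoxic group and 18.9 FPKM in the control group. Both were high under low oxygen alone and lowest in the combined group. AJAP28759, next to AJAP28760, averaged 14.9 FPKM in the thermal group and 0.722 FPKM in the combined group, against 3.21 FPKM in the hypoxic group and 29.0 FPKM in the control group, so it was also low under low oxygen alone. MSTRG.60513, next to MSTRG.60512, averaged 7.83 FPKM in the thermal group and 5.76 FPKM in the combined group, against 16.1 FPKM in the hypoxic group and 17.0 FPKM in the control group. These means were close in pattern to those of MSTRG.60512, but the warmed and unwarmed libraries of MSTRG.60513 overlapped. Its lowest unwarmed minus its highest warmed library was -0.93 log2 units.

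Among members within 5 numbers of each other, AJAP10979 and AJAP10984 had a within-group correlation of 0.76 over the 12 libraries, AJAP15691 and AJAP15694 one of 0.51, and AJAP17117 and AJAP17119 one of -0.04. These correlations are descriptions over libraries that the features share.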
